A study of Mus musculus with 4 samples.

Results

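The Bcl2 family, the caspases, the death receptors and the necroptosis kinases form the machinery through which a cell dies from an internal signal or on an order from outside. Their RNA was followed in mouse osteoclast cultures formed with or without BMS-582949, a compound that inhibits p38α, a stress-activated kinase. A list of 34 gene symbols was looked up in the deposited count table, and all 34 had at least 40 counts summed over the 4 libraries (136 to 77844 counts), out of 23390 gene models in the table. The list is not complete for any of the families, and further genes that work with them are described at the end as partners.

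All cultures came from bone marrow of wild-type C57BL/6J mice. The marrow was grown for 3 days with supernatant of the fibroblast line L929 as its source of M-CSF, equivalent to 20 ng/ml of the recombinant cytokine. Macrophages that had attached were replated with 40 ng/ml RANKL, the cytokine that turns them into osteoclasts, and RNA was taken at day 4. Of the 4 libraries, 2 are labelled DMSO and 2 are labelled with 10 µM BMS-582949. The treatment protocol names the compound for every sample, so the groups rest on the treatment label, and the titles of the treated samples give the compound's number with digits exchanged. The sources give the exposure as 3 days (design text) or 4 days (treatment protocol), and whether replicate libraries stem from different mice or different dishes is not stated. P-values therefore measure only the spread between these libraries, which may be technical.

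In the intrinsic pathway, BH3-only proteins sense damage or loss of survival signals and either block the anti-apoptotic Bcl2 proteins or activate Bax and Bak, which open the outer mitochondrial membrane. Cytochrome c then joins Apaf1 to activate caspase-9. In the extrinsic pathway, Fas or a TNF receptor recruits adaptors that activate caspase-8. Where caspase-8 is held back, Ripk3, downstream of Ripk1, can instead phosphorylate Mlkl, which ruptures the plasma membrane. Osteoclasts are short-lived cells whose survival depends on M-CSF and RANKL, and Bim, the product of Bcl2l11, is a well-known limit on their lifespan.

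Library totals ran from 35331889 to 39255925 counts. All 10 osteoclast markers examined, among them Acp5, Ctsk and Dcstamp, were detected in every library, and their summed level was 99133 and 103354 CPM (read counts scaled to a common library size after TMM normalization) in the DMSO libraries against 12156 and 12315 CPM with BMS-582949. The 10 macrophage markers summed to 10574 and 10793 CPM against 11143 and 11919 CPM, with 6 of them called higher and 2 lower. That sum joins moves in both directions. Lyz2 went from a mean of 4825 CPM in DMSO to 8515 CPM, while Cd68 went from 3464 to 1358 CPM and Csf1r from 1977 to 883 CPM. Cx3cr1 rose from 1.34 to 32.4 CPM, Adgre1 from 175.2 to 400.1 CPM and Mrc1 from 19.1 to 57.0 CPM. Mertk rose from 6.26 to 15.9 CPM and Itgam from 142.1 to 197.3 CPM. Cd14 and Fcgr1 were not called. The 8 stromal markers summed to 701 and 766 CPM in DMSO and 495 and 498 CPM with the compound, and 5 of the 7 tested were called lower. Most of that sum came from the collagen genes Col1a1 and Col1a2, at means of 314.8 and 318.8 CPM in DMSO. The 9 neutrophil markers summed to 27.7 and 28.0 CPM in DMSO and 17.6 and 20.9 CPM with the compound, with 3 of 7 tested called lower and Ly6g at 0. The 7 dendritic markers summed to 27.6 and 33.8 CPM against 16.9 CPM in each treated library, with 1 of 2 tested called lower and Siglech at 0. The 7 lymphoid and 5 erythroid markers summed to at most 0.761 and 2.12 CPM, with Cd3e, Cd3g and Ncr1 at 0 and none called. Their part in the results below was not tested.

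Treatment with BMS-582949 moved the death machinery in both directions. Of the 34 genes, 11 were called higher and 10 lower (edgeR's quasi-likelihood test with Benjamini-Hochberg adjustment over 13214 genes, threshold 0.05), and 13 were not called. These shares, 32.4% and 29.4%, lie beside 30.5% and 29.7% over all genes tested, so the family as a whole was called about as often as any gene in this comparison (61.8% against 60.2%). Changes of at least 2-fold were called for 6 of the 34 (17.6%), against 21.3% of all genes. The median log2 fold change was 0.07, and 0.03 over all genes. The groups did not overlap for 27 of the 34 genes (79.4%), against 80.2% of all genes. The roles described below hold 3 to 7 genes each, so their counts rest on few genes and stand beside these same shares. In whole cultures, fewer cells of a type and less RNA per cell cannot be told apart.

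**Figure D1:**
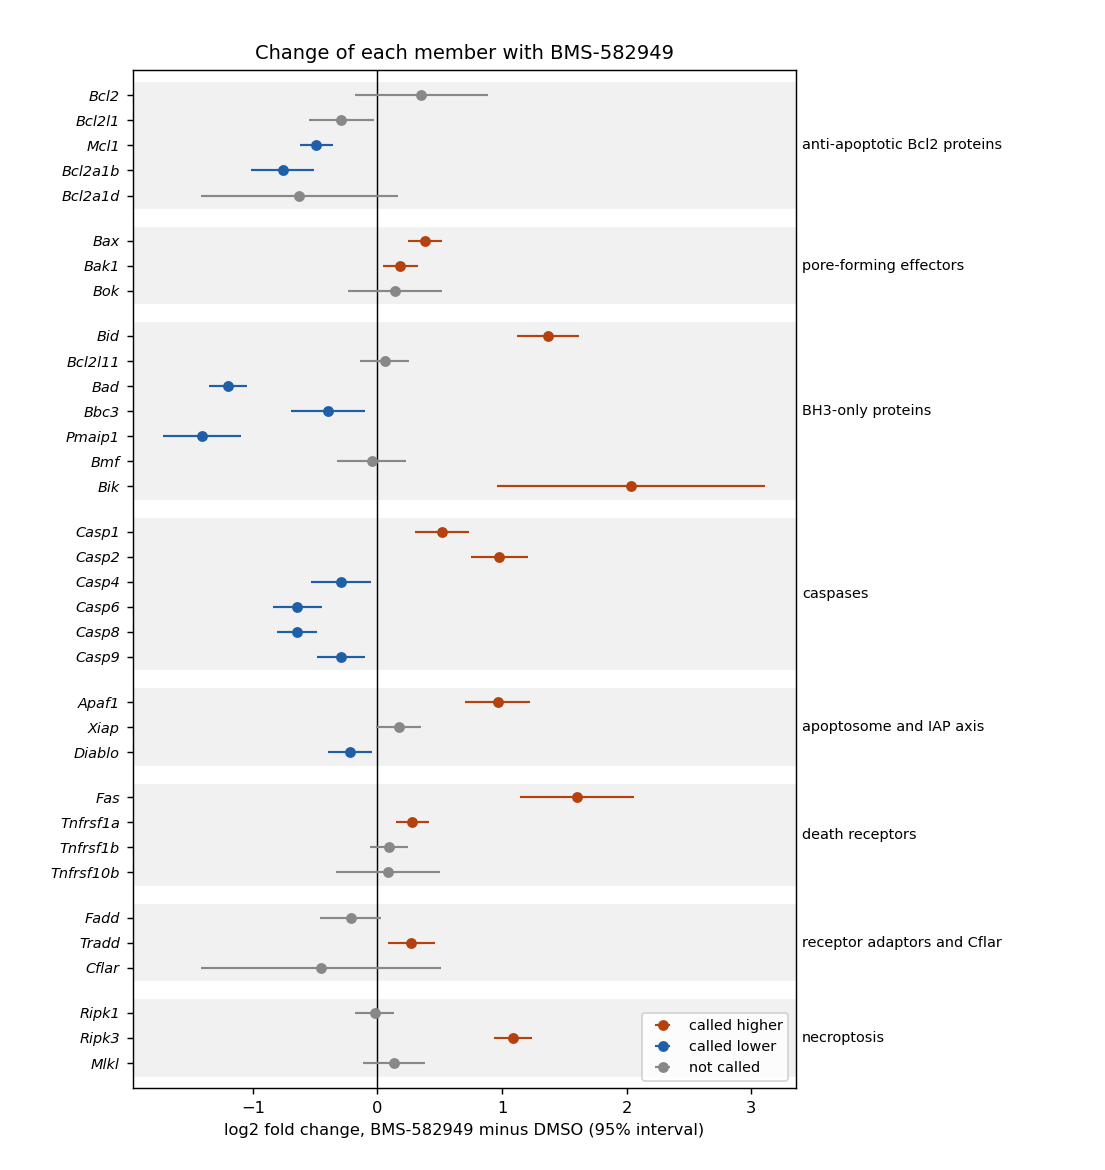
Log2 fold change of each gene (BMS-582949 minus DMSO, x axis) with its 95% interval, 2 libraries per group, ordered by role. Points are coloured by call, and the largest rises are Bik, Fas and Bid and the largest falls Pmaip1 and Bad.

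Among the scalings tried, library size only moved the balance of these calls most. Libraries were scaled with TMM, which gave 11 higher and 10 lower. DESeq2 size factors gave 11 and 11, and upper-quartile scaling 12 and 8. With library size only, which applies no further scaling factor, the median of all genes moved from 0.03 to 0.41. That setting gave 19 of the 34 higher and 5 lower. Across 12 other settings, 9 of the 11 rises (Bax, Bid, Bik, Casp1, Casp2, Apaf1, Fas, Tnfrsf1a and Ripk3) and 5 of the 10 falls (Bcl2a1b, Bad, Pmaip1, Casp6 and Casp8) were called in the same direction every time.

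No anti-apoptotic gene was called higher, against 30.5% of all genes, with only 5 on the list. Of 5, 2 fell and 3 were not called, while with library size only 1 was lower and 1 (Bcl2) higher. Mcl1, a short-lived guardian of the outer mitochondrial membrane (GRCm38, GENCODE M21, chr3:95658788-95663176, plus strand), had the highest level of them per kilobase of exon. Its level was 613 and 634 CPM in DMSO and 443 CPM in each library with BMS-582949. Both treated libraries lay below both controls, a log2 fold change of -0.49 ± 0.06 (SE, edgeR adjusted p = 1.8e-05), and -0.11 without a call (adjusted p = 0.11) with library size only. Per kilobase of exon, Mcl1 stood at a mean of 182 CPM in DMSO and 130 CPM with the compound, and it made up 79.9% and 80.8% of the summed level of the 5 anti-apoptotic genes in DMSO and 83.4% and 81.5% with the compound. That sum went from 224 and 229 to 155 and 159 CPM per kilobase.

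Bcl2a1b, one of the mouse copies of the NF-kB-induced survival gene A1, was second in level per kilobase. It had 31.3 and 30.3 CPM in DMSO and 16.9 and 19.5 CPM with BMS-582949. The groups did not overlap, and the log2 fold change was -0.76 ± 0.12 (SE, edgeR adjusted p = 1.0e-04). Bcl2a1d was much lower, with 1.64 and 1.68 CPM in DMSO and 1.06 and 1.09 CPM with the compound, a change of -0.63 that was not called (95% interval -1.42 to 0.17). The A1 copies are difficult to separate by sequence. Their coding sequences are each 519 bases long, and the pairs differ at 6 bases (Bcl2a1b and Bcl2a1d, 98.8% identity), 7 bases (Bcl2a1a and Bcl2a1d) and 11 bases (Bcl2a1a and Bcl2a1b). The first 90 coding bases hold 6 of the 12 positions at which any of the 3 differ, shown here in capitals, from GENCODE M21 transcripts:
Bcl2a1a: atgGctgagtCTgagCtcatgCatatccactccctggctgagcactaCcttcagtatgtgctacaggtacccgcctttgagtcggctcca
Bcl2a1b: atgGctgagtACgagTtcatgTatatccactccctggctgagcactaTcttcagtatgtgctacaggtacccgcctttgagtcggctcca
Bcl2a1d: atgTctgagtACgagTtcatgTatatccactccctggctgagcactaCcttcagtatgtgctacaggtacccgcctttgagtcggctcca

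Of all windows of 100 bases in the Bcl2a1b transcript, 31.1% also occur in Bcl2a1a or Bcl2a1d, and for Bcl2a1d 54.7% occur in another copy. How the authors counted reads that match several copies is not given in the sources used here, so the split between the copies is uncertain. The exons of Bcl2a1b also overlap a same-strand model, Gm29094, over 49.1% of their length. Bcl2a1a, a partner named after its values were seen, had 2.90 and 2.63 CPM in DMSO and 1.88 and 3.69 CPM with the compound, without a call (edgeR adjusted p = 0.98).

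Bcl2 itself, the founding member, was scarce in these cultures. Its level was 2.54 and 2.69 CPM in DMSO and 3.43 and 3.26 CPM with BMS-582949. The treated libraries were the higher ones, but the log2 difference of 0.35 was not called (95% interval -0.18 to 0.88). Bcl2l1, which encodes Bcl-xL, had 20.7 and 21.4 CPM in DMSO and 15.9 and 18.6 CPM with the compound. Here the treated libraries were the lower ones. The log2 difference was -0.29 (95% interval -0.55 to -0.03, edgeR adjusted p = 0.054), it was called lower in 4 of 12 other settings, and it was 0.09 with library size only.

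**Figure D2:**
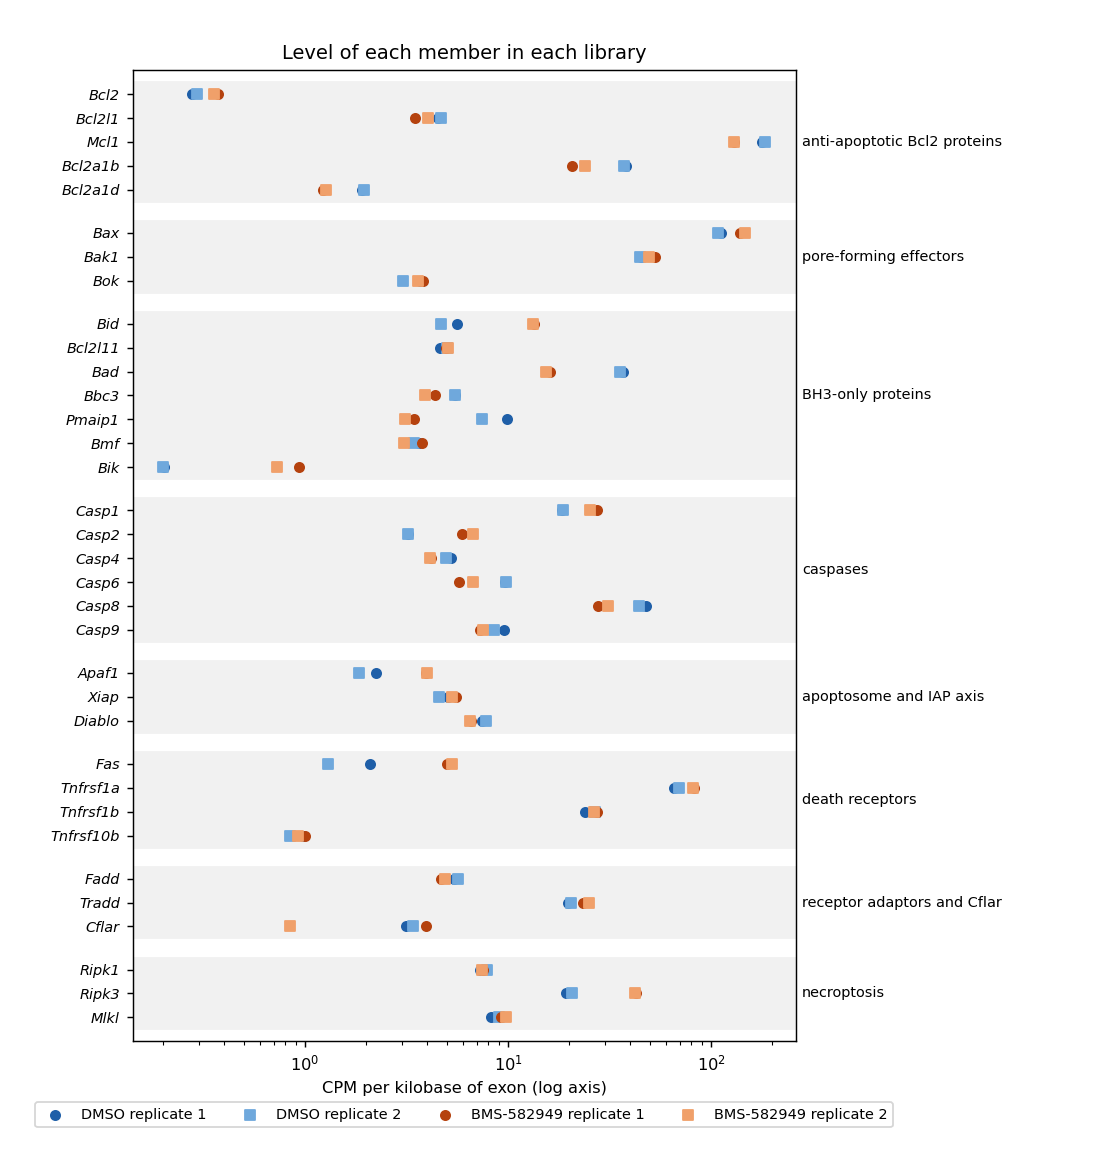
Level of each gene in each of the 4 libraries, as TMM-scaled CPM per kilobase of exon on a log axis, ordered by role. Mcl1 and Bax have the highest values, Bik and Bcl2 the lowest, and Cflar in BMS-582949 replicate 2 stands apart from its other 3 libraries.

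The pore-forming effectors went the other way from Mcl1. Of 3, 2 rose and Bok was not called, and with library size only all 3 were called higher. Bax was measured at 176 and 171 CPM in DMSO and 220 and 233 CPM with BMS-582949. The treated libraries were both higher, by 0.38 ± 0.06 on the log2 scale (SE, edgeR adjusted p = 1.7e-04). Bak1 had 109 and 108 CPM in DMSO and 128 and 119 CPM with the compound. Its rise of 0.18 ± 0.06 (SE, edgeR adjusted p = 0.025) was the smallest called among the 34, and it lost its call in 4 of 12 other settings, among them the fits without DMSO replicate 1 (adjusted p = 0.054), without DMSO replicate 2 (0.056) or the treated replicate 1 (0.19). Bok, a relative of both, stood at 5.61 to 7.05 CPM, and its groups overlapped. The exons of Bak1 overlap the opposite-strand gene Ggnbp1 over 25.5% of their length.

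Bax is a textbook target of the transcription factor p53. Its promoter window from RefSeq (GRCm38.p6, chr7:45466849-45467148, minus strand, 250 bases before to 50 after the start) is shown because both Bax and Trp53, described below, were called higher. Bax was thus chosen by its result, and a role of p53 was not tested. Genes known as p53 targets moved in both directions. Cdkn1a, Zmat3, Mdm2, Fas and Apaf1 were among those called higher, and Ccng1 and Sesn2 among those called lower. Trp53 is also on the list of regulators linked to BH3-only genes. Of the 7 BH3-only genes, 2 were called higher and 3 lower, Pmaip1 and Bbc3 among the latter. Capitals in the Bax window mark a match to a p53 half-site, 201 bases before the start. A full p53 response element holds a pair of such sites:
Bax: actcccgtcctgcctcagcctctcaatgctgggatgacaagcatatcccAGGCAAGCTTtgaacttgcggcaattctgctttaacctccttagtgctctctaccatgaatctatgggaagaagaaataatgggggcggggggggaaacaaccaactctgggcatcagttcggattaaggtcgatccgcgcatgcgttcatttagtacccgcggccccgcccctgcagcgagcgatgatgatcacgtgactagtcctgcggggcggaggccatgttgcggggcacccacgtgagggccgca

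A p53 half-site, searched on both strands, occurs in 8.36% of all 32851 promoter windows in the table. Among the 34 genes, 30 had at least 1 window there, 42 windows in all. Of these genes, 2, Bax and Bmf, hold a match in at least 1 window. Here and for the elements below, the percent is a share of windows, while the names are genes. A match is a description of the letters and not evidence of binding. Exons of Bax overlap a same-strand model, Gm45808, over 12.2% of their length.

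BH3-only genes split most widely. Of 7, 2 rose (Bik and Bid), 3 fell (Pmaip1, Bad and Bbc3) and 2 were not called, against 4 higher and 2 lower with library size only. Bid, which links caspase-8 to the mitochondria (chr6:120891930-120916853, minus strand), had 20.0 and 16.6 CPM in DMSO. With BMS-582949 it had 47.5 and 47.2 CPM. Both treated libraries lay above both controls, by 2.59-fold, a log2 fold change of 1.37 ± 0.11 (SE, edgeR adjusted p = 4.8e-07). Exons of Bid overlap the opposite-strand gene Bcl2l13 over 17.7% of their length, and whether strand was used in counting is not given in the sources used here. Bcl2l13, named after its value was seen, was called lower (-0.37), and was not called with library size only (0.01).

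Bik, whose product acts at the endoplasmic reticulum, had the largest fold change of the 34 genes and the fewest counts (136 over all libraries). It had 10 counts in each DMSO library (0.322 and 0.317 CPM). With the compound there were 67 and 49 counts (1.48 and 1.16 CPM). The log2 fold change of 2.04 (95% interval 0.96 to 3.11, edgeR adjusted p = 0.0034) therefore rests on few reads.

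Pmaip1, which encodes Noxa, a partner and inhibitor of Mcl1, fell by 1.41 ± 0.15 on the log2 scale (SE, edgeR adjusted p = 3.4e-06). It had 27.0 and 20.4 CPM in DMSO and 9.40 and 8.48 CPM with BMS-582949, so the groups lay far apart although the controls differed by 1.32-fold. Bad, whose product is held inactive by survival kinases, was the most abundant BH3-only gene in DMSO per kilobase of exon (a mean of 36.2 CPM per kilobase). Its level was 94.2 and 91.1 CPM in DMSO and 41.2 and 39.5 CPM with the compound. It fell by 1.2 ± 0.07 on the log2 scale (SE, edgeR adjusted p = 1.7e-08). Exons of Bad overlap the opposite-strand gene Gpr137 over 20.5% of their length.

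The makeup of the BH3-only group changed with these moves. On the per-kilobase scale, Bad made up 55.5% and 57.6% of the summed level of the 7 genes in DMSO and 34.3% and 34.6% with BMS-582949. Bid went from 8.5% and 7.58% to 28.5% and 29.8%. The sum itself was 66.3 and 61.8 CPM per kilobase in DMSO and 47.0 and 44.6 CPM with the compound.

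Bbc3, which encodes Puma, had 11.6 CPM in each DMSO library and 9.31 and 8.32 CPM with BMS-582949. The treated libraries were lower, by a called -0.40 ± 0.14 (SE, edgeR adjusted p = 0.024), which was not called with library size only (-0.01), without DMSO replicate 1 (-0.39, adjusted p = 0.051) or without BMS-582949 replicate 2 (-0.34, adjusted p = 0.13). Bcl2l11, which encodes Bim, was measured at 37.3 and 40.2 CPM in DMSO and 39.9 and 40.7 CPM with the compound. Its groups overlapped, and the interval of the log2 difference ran from -0.14 to 0.25, although with library size only it was called higher (0.44). Bmf, a BH3-only gene linked to the cytoskeleton, had 16.2 to 19.9 CPM with overlapping groups (95% interval -0.32 to 0.23) and was called higher with library size only (0.34).

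All 6 caspase genes on the list were called, 2 higher and 4 lower, and with library size only 2 and 2. Over all genes tested, 60.2% were called, 30.5% higher and 29.7% lower. Casp2, an initiator caspase activated in the PIDDosome, changed most. It had 22.6 and 22.8 CPM in DMSO and 41.8 and 47.6 CPM with BMS-582949. Casp2 was 1.97-fold higher in the treated group, without overlap (log2 0.98 ± 0.11 SE, edgeR adjusted p = 5.2e-06). Casp1, the inflammasome caspase that cuts the precursors of IL-1β and IL-18, had 27.7 and 27.8 CPM in DMSO and 41.3 and 38.0 CPM with the compound. It was higher in both treated libraries, by 0.52 ± 0.10 (SE, edgeR adjusted p = 7.1e-04).

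Casp2 is shown with its promoter because E2f1, described below, was called higher as well. The window (RefSeq, GRCm38.p6, chr6:42264735-42265034, plus strand) holds a match to an E2F element 97 bases before the start, in capitals:
Casp2: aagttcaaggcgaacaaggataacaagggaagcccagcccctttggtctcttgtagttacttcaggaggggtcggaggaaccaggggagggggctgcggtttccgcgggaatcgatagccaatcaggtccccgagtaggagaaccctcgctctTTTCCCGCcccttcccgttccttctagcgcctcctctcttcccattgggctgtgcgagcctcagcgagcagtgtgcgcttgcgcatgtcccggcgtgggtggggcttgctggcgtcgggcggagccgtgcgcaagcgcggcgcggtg

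The E2F letters searched on both strands were TTTCCCGC, TTTCGCGC, TTTGCCGC and TTTGGCGC, and 2.26% of all windows hold at least 1 of them. Among the 30 genes with a window these are Casp2, Bcl2l1 and Fadd. Casp2 was called higher with the compound, while Bcl2l1 and Fadd were not called.

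Casp8, the initiator of the death receptor pathway and a brake on necroptosis (chr1:58795374-58847503, plus strand), had the highest mean per kilobase of exon among the listed caspases in both groups (45.9 and 29.3 CPM per kilobase). With BMS-582949 the mean of Casp1 was close (26.5 CPM per kilobase), and in replicate 1 both genes stood at 27.6. Casp8 had 138 and 128 CPM in DMSO and 79.9 and 89.8 CPM with BMS-582949. The treated libraries were both lower, by a log2 fold change of -0.65 ± 0.07 (SE, edgeR adjusted p = 7.8e-06). Casp6, an executioner caspase, moved by a like amount, from 54.1 and 54.6 CPM to 32.2 and 37.5 CPM (-0.64 ± 0.09 SE, edgeR adjusted p = 5.6e-05).

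Falls of Casp9 and Casp4 were small. Casp9, the apoptosome caspase, had 49.7 and 44.4 CPM in DMSO and 37.7 and 39.1 CPM with the compound (-0.29, edgeR adjusted p = 0.012), and its call ended without DMSO replicate 1 (-0.21, adjusted p = 0.13). Casp4, the mouse gene also called caspase-11, which senses bacterial lipopolysaccharide in the cytosol, had 19.4 and 18.4 CPM in DMSO and 15.5 and 15.3 CPM with the compound (-0.29, edgeR adjusted p = 0.037), and leaving out any single library ended its call (adjusted p 0.053 to 0.16). With library size only neither was called, and both values turned positive (0.09 each).

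Apaf1, the scaffold on which caspase-9 is activated, rose while Casp9 fell. It had 20.2 and 16.6 CPM in DMSO and 35.7 and 36.1 CPM with BMS-582949. Without overlap, Apaf1 was 1.95-fold higher with the compound (log2 0.97 ± 0.12 SE, edgeR adjusted p = 1.8e-05). Xiap, an inhibitor that binds active caspases, had 47.9 and 43.2 CPM in DMSO and 52.6 and 49.9 CPM with the compound. Its treated libraries were the higher ones, but the difference was not called (95% interval -0.01 to 0.35). Diablo, which frees caspases from Xiap once it leaves the mitochondria, had 46.0 and 48.0 CPM in DMSO and 40.7 and 39.9 CPM with the compound (-0.22, edgeR adjusted p = 0.033). That call ended without any 1 of the 4 libraries (adjusted p 0.056 to 0.19), and with library size only the value was 0.16. Exons of Diablo overlap other models over 40.9% of their length.

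The list holds only 4 receptor genes in this group, among them Tnfrsf1b, which lacks a death domain. None of them was called lower, against 29.7% of all genes. Of 4, 2 rose and 2 were not called, and with library size only 3 were called higher. Fas, the receptor for Fas ligand, had 4.31 and 2.69 CPM in DMSO and 10.3 and 10.9 CPM with BMS-582949. Both treated values exceeded both controls, by 3.03-fold (log2 1.60 ± 0.21 SE, edgeR adjusted p = 3.0e-05), and the value ran from 1.3 to 1.98 over the 12 other settings. The gene for its ligand, Fasl, chosen after its values were seen, had 0 counts among the 148221315 of all libraries, which allows up to 3 counts (0.0202 CPM, counting error only).

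Fas is printed because it had the largest rise among the receptors. Its promoter window (RefSeq, GRCm38.p6, chr19:34290409-34290708, plus strand) holds a match to the AP-1 element, 211 bases before the start, and to the GAS element that STAT proteins bind, 93 bases before the start, both in capitals:
Fas: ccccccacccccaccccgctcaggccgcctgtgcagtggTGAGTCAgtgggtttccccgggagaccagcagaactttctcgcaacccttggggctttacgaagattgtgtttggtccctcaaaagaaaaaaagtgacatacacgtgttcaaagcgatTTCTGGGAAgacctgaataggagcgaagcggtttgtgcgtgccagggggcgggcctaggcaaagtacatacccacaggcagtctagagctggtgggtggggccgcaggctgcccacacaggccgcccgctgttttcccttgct

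The AP-1 letters were TGACTCA on either strand, found in 5.20% of all windows and, among the 30 genes, in Fas alone. The GAS letters were TTCNNNGAA, found in 8.30% of all windows and in Fas, Ripk1, Tnfrsf1a and Tnfrsf1b. Of these 4 genes, Fas and Tnfrsf1a were called higher.

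Tnfrsf1a, the TNF receptor that carries a death domain, had the highest level per kilobase among the receptors on the list (means of 67.7 and 82.3 CPM per kilobase). It had 171 and 180 CPM in DMSO and 214 and 212 CPM with BMS-582949. Both treated libraries were higher, by 0.28 ± 0.06 (SE, edgeR adjusted p = 0.0015). Tnfrsf1b, the TNF receptor without a death domain, had 91.0 and 102 CPM against 105 and 101 CPM with overlapping groups (95% interval -0.06 to 0.25). Tnfrsf10b, the mouse receptor for TRAIL, had 4.6 to 5.48 CPM over all libraries, also with overlapping groups (95% interval -0.33 to 0.50). With library size only, Tnfrsf1b was called higher (0.48).

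Behind the receptors, Tradd, the adaptor of Tnfrsf1a, had 37.0 and 38.1 CPM in DMSO and 43.8 and 47.0 CPM with BMS-582949. Its rise of 0.27 ± 0.09 (SE, edgeR adjusted p = 0.016) was not called without DMSO replicate 1 (adjusted p = 0.067) or without BMS-582949 replicate 2 (0.12). Fadd, which bridges Fas and caspase-8, had 21.1 and 22.2 CPM in DMSO and 18.3 and 19.0 CPM with the compound. The treated libraries were the lower ones, but the log2 difference of -0.21 was not called (95% interval -0.46 to 0.03) and was 0.17 with library size only.

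Cflar, which encodes c-FLIP, the catalytically dead relative of caspase-8 that blocks its activation, had treated libraries that disagreed. It lies at chr1:58711508-58758884, plus strand. It had 39.7 and 43.2 CPM in DMSO, 49.9 CPM in BMS-582949 replicate 1 and 10.7 CPM in BMS-582949 replicate 2 (1234, 1363, 2257 and 451 counts). The libraries of the treated group lay on both sides of the controls, 4.68-fold apart. The log2 fold change was -0.45 (95% interval -1.41 to 0.51, edgeR adjusted p = 0.40) with all libraries, 0.25 (adjusted p = 0.035) without BMS-582949 replicate 2 and -1.96 (called lower) without BMS-582949 replicate 1.

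Cflar had the largest gap between treated libraries among the 34 genes. Of the 27 with a mean of at least 10 CPM in the treated group, the next largest gap between the treated libraries was 1.23-fold (Bmf) and the median 1.05-fold. Of the 28 genes with a mean of at least 10 CPM in DMSO, the largest gap between the DMSO libraries was 1.32-fold (Pmaip1). Over the whole table, 33 of 8450 models with a treated mean of at least 10 CPM (0.391%) differed by at least 2-fold between the treated libraries, and 14 by at least 4-fold. Of those 33, 18 have exons that overlap another model on the same strand and 4 are new models without an Ensembl ID. Between the DMSO libraries, 14 of 8214 models differed by at least 2-fold, and 3 of these have such an overlap. The share of such overlaps among all models was not taken, so these counts are a description only. Exons of Cflar overlap no other annotated model.

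**Figure D3:**
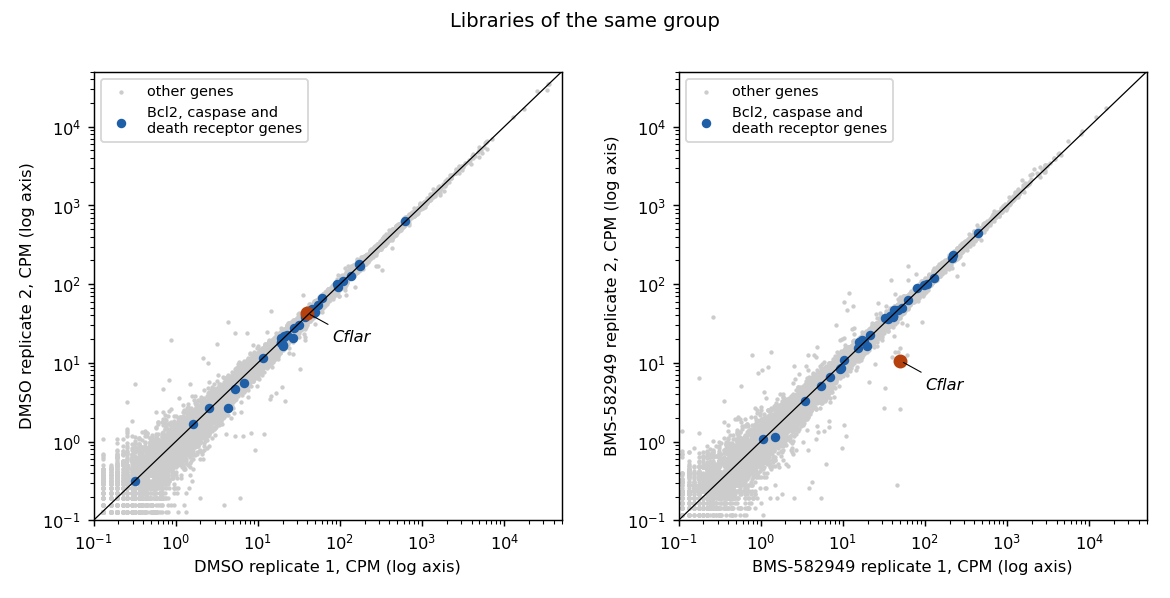
CPM of every gene in replicate 2 (y axis) against replicate 1 (x axis) of DMSO (left) and BMS-582949 (right), both axes log, with the line of equal values. The Bcl2, caspase and death receptor genes (blue) follow the line except Cflar (orange), which lies 4.68-fold below it in the treated group.

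In the necroptosis group only Ripk3 was called, and with library size only all 3 genes were called higher. Ripk3, the kinase that phosphorylates Mlkl (chr14:55784995-55788865, minus strand), had 44.1 and 47.3 CPM in DMSO and 97.4 and 97.1 CPM with BMS-582949. Ripk3 was 2.13-fold higher, and the groups lay far apart (log2 1.09 ± 0.07 SE, edgeR adjusted p = 4.1e-08). Ripk1, its upstream partner, had 60.9 and 65.9 CPM against 62.8 and 62.0 CPM with overlapping groups (95% interval -0.18 to 0.13). Mlkl, the pore-forming executor, had 19.1 and 20.8 CPM against 21.2 and 22.5 CPM. Its treated libraries were the higher ones, without a call (95% interval -0.12 to 0.38).

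Seen by pathway position, Ripk3 rose and Casp8 fell in the same libraries, while Ripk1 and Mlkl were not called. The pair was named after the values were seen, and a link between them was not tested. Over all genes tested, 30.5% were called higher and 29.7% lower. The level of Casp8 per kilobase was 47.6 and 44.3 CPM in DMSO and 27.6 and 31.0 CPM with BMS-582949, and that of Mlkl 8.30 and 9.04 against 9.23 and 9.76 CPM.

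A further 81 genes that work with these proteins were listed, and 71 of them had enough counts to be tested. Of these, 34 were called higher (47.9%, against 30.5% of all genes) and 18 lower (25.4%, against 29.7%), and with library size only 50 and 10. The lists were chosen with earlier results of these data known, so these shares describe the lists only. Among 13 genes of necroptosis and pyroptosis, 10 rose, 1 fell and 2 were not called, with a median of 1.18, and 12 rose and 1 fell with library size only. Named in full after their values were seen, the 10 were Nlrp3, Nlrp1b, Nlrc4, Aim2, Mefv, Pycard, Gsdmd, Gsdme, Il18 and Ninj1. Zbp1 (edgeR adjusted p = 0.089) and Ripk2 (0.21) were not called, and Pgam5 fell. The inflammasome sensor gene Nlrp3 had the largest rise. Nlrp3 went from 4.92 and 5.45 CPM to 26.9 and 24.1 CPM (log2 2.30 ± 0.13 SE, edgeR adjusted p = 1.3e-08), and Nlrc4, another sensor gene, from 2.54 and 3.36 to 8.67 and 8.01 CPM (1.5). Il18, a substrate of caspase-1, rose by 1.51, Pycard, the adaptor between sensors and caspase-1, by 0.86, and Gsdmd, the pore protein that caspase-1 and caspase-11 cut, by 0.30. Pgam5, a mitochondrial phosphatase whose exons overlap the opposite-strand model Gm26718 over 58.1% of their length, fell by 0.69 on the log2 scale.

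Of 17 caspase and apoptosome partners, 9 rose, 4 fell and 4 were not called, against 12 and 3 with library size only. Inhibitor of apoptosis genes were among those that rose: Birc3 by 0.62, Birc2 by 0.42 and Naip6, an inflammasome receptor of that family, by 1.08. Birc5, which encodes survivin and also serves in cell division, rose by 1.70. Genes for mitochondrial proteins were among those that fell: Cycs, which encodes cytochrome c, went from 525 and 472 CPM to 245 and 253 CPM (-1.0 ± 0.07 SE, edgeR adjusted p = 7.7e-08), and Endog (-1.10) and Aifm1 (-0.78) were called lower. Exons of Endog overlap the opposite-strand gene Spout1 over 35.7% of their length. The fourth partner to fall was the mitochondrial protease gene Htra2 (-0.50), named after its value was seen and not called with library size only (-0.12). Over 43.7% of their length, the exons of Htra2 overlap the opposite-strand genes Aup1 and Loxl3.

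**Figure D4:**
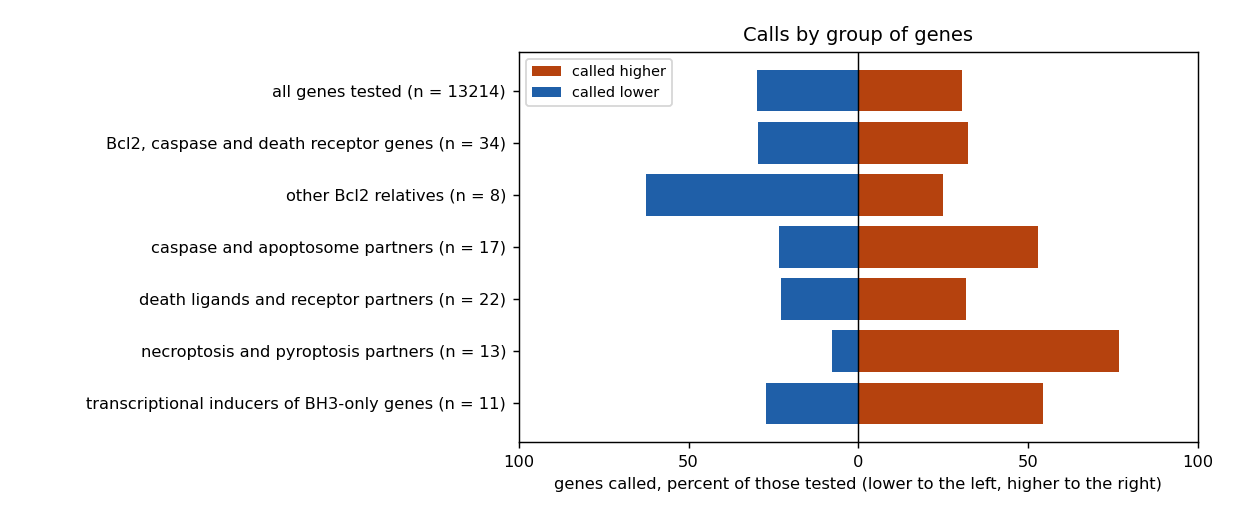
Percent of tested genes called higher (right, orange) and lower (left, blue) with BMS-582949 in all genes, in the Bcl2, caspase and death receptor genes and in the 5 partner lists, with the number tested. The 34 genes show about the shares of all genes (32.4% and 29.4% against 30.5% and 29.7%), and the necroptosis and pyroptosis partners have the most calls in the higher direction (76.9%). In that list Zbp1 and Ripk2 were not called and Pgam5 was lower. The lists were chosen with earlier results of these data known.

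Of 8 other Bcl2 relatives tested, 5 fell and 2 rose, against 3 and 3 with library size only. The mitophagy receptor genes Bnip3 and Bnip3l fell most, Bnip3 from 97.8 and 85.0 CPM to 29.4 and 27.2 CPM (-1.69 ± 0.09 SE, edgeR adjusted p = 5.8e-09) and Bnip3l with -1.15. Bcl2l2, which encodes the anti-apoptotic Bcl-w, went from 32.9 and 30.4 CPM to 18.7 and 15.1 CPM (-0.90), and Bcl2l12 rose by 0.98. The exons of Bcl2l12 overlap the opposite-strand models Irf3 and Gm15545 over 33.4% of their length. Those of Bnip3 overlap the opposite-strand model Gm45507 over 22.3%.

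Among 22 death ligand and receptor partners, 7 rose, 5 fell and 10 were not called, against 15 and 2 with library size only. Tnf, whose product binds Tnfrsf1a and Tnfrsf1b, went from 5.86 and 6.72 CPM to 10.7 and 16.7 CPM (1.12 ± 0.20 SE, edgeR adjusted p = 3.3e-04). The decoy TRAIL receptor gene Tnfrsf22 rose by 1.16 and its neighbour in the family Tnfrsf26 by 0.94, while Tnfrsf23 fell (-0.58), though not with library size only (-0.20). The Naip and Tnfrsf22, Tnfrsf23 and Tnfrsf26 genes are families of close copies, between which reads could be split. The ubiquitin-editing inhibitors of TNF signalling Tnfaip3 and Cyld fell (-1.17 and -0.42), and Cyld was not called with library size only (-0.04).

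Of 11 genes on a list of transcriptional regulators linked to BH3-only genes, 6 rose, 3 fell and 2 were not called, against 8 and 1 with library size only. The list also holds p53 targets that are not such regulators (Cdkn1a, Zmat3, Ccng1 and Sesn2), and the counts include them. Trp53, which encodes p53, went from 111 and 116 CPM to 179 and 186 CPM (0.69 ± 0.06 SE, edgeR adjusted p = 9.8e-07). Cdkn1a rose by 0.58, Mdm2, which encodes the ligase that degrades p53, by 0.17 (edgeR adjusted p = 0.04, and 0.081 with DESeq2 size factors) and Zmat3, named after its value was seen, by 0.56. Ccng1 (-0.45) and Sesn2 (-0.65) fell. E2f1 rose by 0.82. Ddit3, which encodes the stress factor CHOP, went from 9.94 and 9.67 CPM to 5.13 and 4.14 CPM (-1.08). With library size only Ccng1 (-0.07) and Sesn2 (-0.26) were not called.

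Other elements were searched in the same promoter windows. The FOXO letters GTAAACA occur in 3.65% of all windows and in those of Bbc3, Bcl2l11 and Casp4. The PU.1 letters GAGGAAGT occur in 3.20% and in Bad, Bak1, Bcl2a1b and Bcl2a1d, and the ISRE core in 3.44% and in Cflar, Ripk1 and Tnfrsf1b. The NF-kB element occurs in 4.51% and in Bbc3, Bcl2l1, Bmf and Casp4. Each was searched on both strands, and the genes without a window were Pmaip1, Bik, Tnfrsf10b and Tradd.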

How the data were processed

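RNA from 4 osteoclast cultures was sequenced. The authors deposited 1 table of whole-number read counts per gene model. Trimmomatic 0.36, HISAT2 2.0.4, DESeq2 1.30.1 and GRCm38 are named in the submitters' processing notes, without their roles. For counting, the tool, annotation and strand setting were not given in the sources used here. Groups come from the treatment label. Library totals were 35331889 and 36178333 counts (DMSO) and 39255925 and 37455168 counts (BMS-582949). Replicates differed beyond counting noise (chi-square per degree of freedom 10 and 14.3), so each was kept.

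Genes passing filterByExpr (minimum count 10, 13214 genes) were scaled with TMM and tested in edgeR 4.0.16 (R 4.3.3) by the quasi-likelihood F test with 2 residual degrees of freedom and Benjamini-Hochberg adjustment over all genes tested. CPM values use TMM-scaled library sizes. CPM per kilobase divides by the exon-union length in GENCODE M21. The script was tested on simulated data. It called 26 of 68 genes with a set log2 change of 0.5 in the right direction. At 1 it called 56 of 66, and at 2 it called 65 of 66. A gene that was not called can thus still have changed. Alternatives used limma 3.58.1 (voom), DESeq2 1.42.0, other scalings, filters and thresholds, a replicate block, and each library left out. The members and lists were chosen with earlier results of these data known. Every listed gene with at least 40 counts is named. Of each partner list, up to 3 called genes per direction with the largest change and a mean of at least 1 CPM are named, plus a preset set of genes, of which some are not reported here.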

Additional observations from a re-analysis of the deposited data

How the results depend on the processing

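With library size only, 19 of the 34 genes were called higher and 5 lower, with a median of 0.45, as were 10 of the partner genes lower and, over all genes, 6738 higher and 2240 lower. The values of Bcl2l1 (0.0905), Bmf (0.34), Casp4 (0.0873), Casp9 (0.086), Diablo (0.16), Fadd (0.17) and Ripk1 (0.36) then turned positive. With upper-quartile scaling the median was 0.13, and Bmf (0.0131) and Ripk1 (0.0363) turned positive. Requiring an absolute log2 fold change of at least 1 left 4 of the 34 higher and 2 lower, and 1314 and 1499 over all genes. An adjusted p under 0.01 left 6 lower.

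Leaving out each library in turn gave 9 to 11 higher and 6 to 9 lower, with a median of 0.0113 to 0.0866, and 6 were lower without DMSO replicate 1. Over these fits Bmf ran from -0.2052 to 0.0737 and Cflar from -1.96 to 0.25, both highest without BMS-582949 replicate 2. Tnfrsf10b ran from -0.0154 (without DMSO replicate 2) to 0.1926, and Ripk1 from -0.0771 to 0.0356 (without DMSO replicate 2). These fits leave 1 residual degree of freedom, and the lone library of a group is assumed to vary like the other group. The cause of these changes was not tested.

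Replicates share only a number (correlation of their deviations -0.08). With the replicate block, 11 were higher and 9 lower, the calls of Casp4 (adjusted p = 0.056) and Diablo (0.06) ended, and Cflar was called lower (-0.81, adjusted p = 0.029). Of 408 values of the 34 genes in 12 other settings, 356 kept direction and call, 26 lost the call, 13 gained it and 13 turned.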
